A study of Mus musculus with 12 samples.

Results

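N-CE, a cell extract of the cactus Notocactus ottonis obtained by low-temperature vacuum extraction, was compared with its vehicle in mouse back skin after 2 weeks of daily application (2W). The data are the 2 arrays whose labels pair the N-CE skin of 2W with the control skin of 2W, of 12 arrays in the series. The mice were males of the strain C57BL/6J, given as 8 weeks-old, and the back had been shaved the day before the first application. One group received 200 µL per day of 10% N-CE. The other group received the vehicle control (VC), which was propylene glycol, ethanol and water in the proportion 5 to 3 to 2. RNA of the skin of 6 mice was pooled per group, so each side of the comparison was 1 pool and no biological replicate exists. Both pools were labelled and hybridized together on whole mouse genome arrays with 2 colours. Array 1 carried N-CE in Cy5 and VC in Cy3, and array 2 carried the same RNA with the dyes exchanged. The arrays therefore repeat a measurement and not an experiment, and the SD given after each mean is over the 2 arrays (n = 2). No test across animals was possible and no p-value is given.

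Hair follicles of shaved mouse skin pass from a resting phase (telogen) to a growth phase (anagen), in which matrix cells divide, hair and inner root sheath keratins are made and melanocytes fill the shaft with pigment. Around the follicles lie the stratified epidermis, the dermis, a layer of fat and the panniculus carnosus, a sheet of skeletal muscle. Immediate early genes such as Fos are transcribed within minutes of a stimulus, without new protein synthesis, and they respond to growth factors, stress and handling of a tissue. Defining markers of these layers were all well above background in both pools on both arrays. They were Krt5, Krt14 and Krt10 of the epidermis, Col1a1 and Col3a1 of the dermis, Acta1 and Myh4 of muscle, Adipoq of fat, Pecam1 of vessels and Ptprc of leukocytes. In whole skin, fewer cells of a type and less RNA per cell cannot be told apart.

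N-CE skin at 2W differed from VC skin in few probes. A difference is given as the log2 ratio of N-CE over VC, so that a value of 1 is a doubling and a negative value is lower in N-CE skin. Of 41081 probes present on both arrays, 25012 were well above background in both pools on both arrays. A probe was called when its ratio exceeded 1.5-fold in the same direction on both arrays. By this rule 31 probes were higher in N-CE skin, or 0.124% of those measured, and 19 were lower, or 0.0760%. A similar number of probes, 51, exceeded 1.5-fold on both arrays in opposite directions. Across probes the log2 ratios of the arrays had a Pearson r of -0.17 and a Spearman rho of -0.22. The sign of each array follows the dyes in its label, and the labels were not checked against any other value. With the sign of one array turned, the 51 probes would be the called ones and the 50 called probes would be of opposite sign. The half-difference of the arrays, which holds the dye effect, had an SD of 0.21 over probes, against 0.18 for the mean of the arrays. The called probes as a set are thus no more frequent than disagreements of the dyes. Opposite signs hold the dye effect as well as error, so their number does not estimate how many calls are false. Values below are given for both arrays or as their mean. With background correction by normexp and loess in place of the processed signals, 6 probes were higher and 5 lower.

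**Figure D1:**
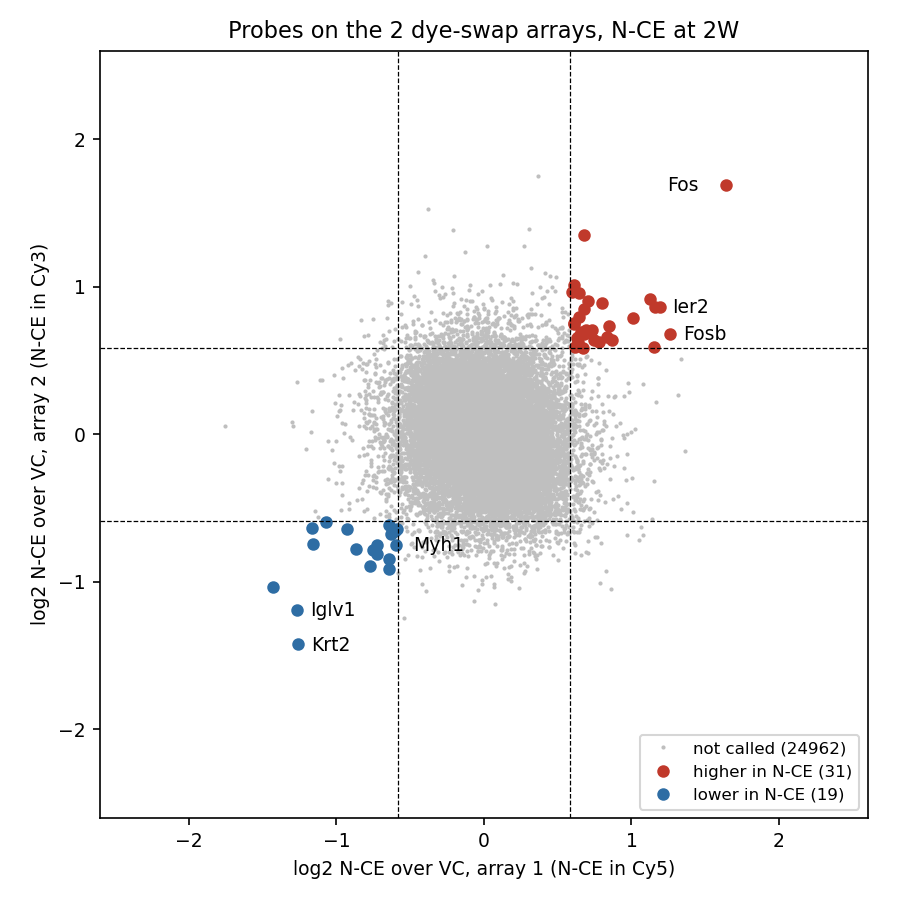
Log2 ratio of N-CE over VC at 2W on array 1 (horizontal, N-CE in Cy5) and array 2 (vertical, N-CE in Cy3), with each point a probe well above background in both pools and dashed lines at 1.5-fold. The 31 probes called higher (red) and 19 called lower (blue) lie in the corners where the arrays have the same sign, Fos stands apart from the others at the upper right, and 51 probes lie in the corners of opposite sign.

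In the other weeks of N-CE, each against a VC pool of its own, few probes had opposite signs for the number called. At 1W, 130 probes were higher (0.543%) and 524 lower (2.19%), while 10 had opposite signs and r between the arrays was 0.60. At 3W, 57 were higher (0.251%) and 61 lower (0.269%), while 9 had opposite signs and r was 0.35. The 2W comparison was thus the one of N-CE in which the arrays repeated each other least. Across the 23258 probes measured at both times, the mean log2 ratios of 2W and 1W had an r of -0.49. Across 22359 probes, those of 2W and 3W had an r of 0.43. Probes are not independent replicates, and the arrays of each week share a slide. The half-differences of the arrays had an r of 0.47 between 2W and 1W and of -0.02 between 2W and 3W.

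Immediate early genes led the probes higher in N-CE skin. The promoters of the 3 called members for which the RefSeq table (GRCm38.p6) holds an entry are shown because the genes were higher together. Each runs from 250 bases before to 50 bases after the start of transcription, 5′ to 3′ on the strand of the gene. Capitals mark a match on either strand to the cyclic AMP response element TGACGTCA, to TATAAA or to the CArG box, the site of serum response factor.
Fos, chr12:85473640-85473939, plus strand: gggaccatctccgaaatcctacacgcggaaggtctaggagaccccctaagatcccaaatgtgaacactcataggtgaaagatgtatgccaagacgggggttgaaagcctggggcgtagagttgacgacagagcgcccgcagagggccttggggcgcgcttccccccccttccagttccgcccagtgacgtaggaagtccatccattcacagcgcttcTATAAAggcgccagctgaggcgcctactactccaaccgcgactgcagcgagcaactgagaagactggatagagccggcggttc
Fosb, chr7:19309996-19310295, minus strand: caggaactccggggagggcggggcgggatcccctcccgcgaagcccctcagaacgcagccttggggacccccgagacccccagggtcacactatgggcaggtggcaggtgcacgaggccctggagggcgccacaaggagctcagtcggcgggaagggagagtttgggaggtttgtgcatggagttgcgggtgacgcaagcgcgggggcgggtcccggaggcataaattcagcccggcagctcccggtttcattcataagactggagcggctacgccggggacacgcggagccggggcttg
Dusp1, chr17:26508423-26508722, minus strand: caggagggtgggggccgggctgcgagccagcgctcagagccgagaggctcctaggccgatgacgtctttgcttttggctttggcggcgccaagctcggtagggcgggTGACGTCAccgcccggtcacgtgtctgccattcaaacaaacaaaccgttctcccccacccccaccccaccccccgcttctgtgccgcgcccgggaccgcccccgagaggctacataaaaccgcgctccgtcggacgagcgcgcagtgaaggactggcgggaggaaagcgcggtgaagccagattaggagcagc
TATAAA was found in the Fos window at bases -33 to -28 and TGACGTCA in the Dusp1 window at bases -143 to -136, counted from the start of transcription. The Fosb window held none of the 3 motifs in these letters. Bases outside the windows and variant forms of the motifs were not searched. Of 32851 promoter windows of this length, 13.6% held TATAAA, 1.79% held TGACGTCA and 1.63% held a CArG box.

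Fos, the founding subunit of the transcription factor AP-1, had a signal of 2450 in N-CE and 786 in VC on array 1. On array 2 its signal was 2123 in N-CE and 658 in VC. The log2 ratio was 1.64 on array 1 and 1.69 on array 2. The mean was 1.66 ± 0.04, or 3.17-fold, and Fos was the only probe higher by over 2-fold on both arrays. Its probe, at chr12:86817900-86817959 of mm9, is printed 10 times on each array. The 9 copies kept on array 1 ranged from 1.61 to 1.67 and the 9 kept on array 2 from 1.62 to 1.73. With normexp and loess the mean was 1.54.

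Fosb, a second AP-1 subunit that partners Jun proteins, had signals of 217 and 226 in N-CE and of 90.4 and 141 in VC on arrays 1 and 2. Its log2 ratio was 1.26 and 0.68, with a mean of 0.97 ± 0.41, and with normexp and loess it was 0.54 and no longer past 1.5-fold on array 2. Dusp1, a phosphatase that switches off MAP kinases, had signals of 4398 and 3761 in N-CE against 2874 and 2501 in VC. Its log2 ratios of 0.61 and 0.59 were close to each other and lay just inside the threshold. The mean was 0.60 ± 0.02, and with normexp and loess the probe missed 1.5-fold on array 2, at 0.56.

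Ier2, an immediate early nuclear protein, was represented by a pair of probes that gave different results. The dimmer one, at chr8:87183623-87183681 of mm9, had signals of 79.1 and 82.6 in N-CE and of 34.6 and 45.4 in VC. Its log2 ratio was 1.19 and 0.86, with a mean of 1.03 ± 0.23. The brighter one, which is assigned to the RefSeq transcript of Ier2, had signals of 3003 and 3848 in N-CE and of 2833 and 3015 in VC. Its log2 ratio was 0.08 and 0.35, with a mean of 0.22 ± 0.19, and it was not called. With normexp and loess the dimmer probe had a mean of 0.39. The call for Ier2 thus rests on a dim probe.

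**Figure D2:**
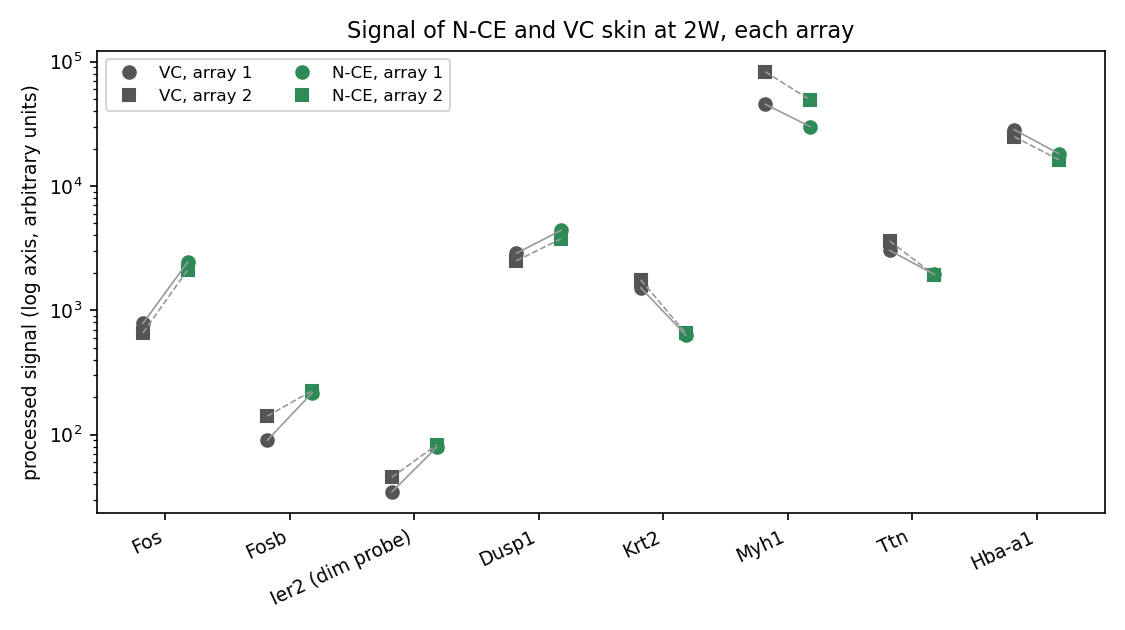
Processed signal (log axis, arbitrary units) of 8 called probes in VC (grey) and N-CE (green) skin on array 1 (circles, solid lines) and array 2 (squares, dashed lines). Every line runs up for Fos, Fosb, the dim Ier2 probe and Dusp1 and down for Krt2, Myh1, Ttn and Hba-a1; signals of different probes are not comparable with each other.

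The rest of the family moved little. Of the 8 AP-1 subunits, all measured, 6 were higher on both arrays and 1, Fosl1, was lower on both, with a median log2 ratio of 0.28 ± 0.09. Over all measured probes, 19.9% were higher on both arrays, 20.0% lower on both and 60.1% of unlike sign, with a median of 0.00. Atf3 was at 0.33, Junb at 0.28, Jun at 0.27 and Fosl2 at 0.16, none of them past 1.5-fold. Jund was at 0.49 on array 1 and -0.50 on array 2, and so had no common direction. Among the other immediate early transcription factors, 7 of 15 measured were higher on both arrays and 0 lower on both, with a median of 0.12 ± 0.14. The highest were Egr1, a zinc finger factor induced by growth factors, at 0.54 ± 0.13 and the nuclear receptor Nr4a1 at 0.41 ± 0.07. Among feedback regulators and secreted factors, 13 of 25 were higher on both arrays and 3 lower on both, with a median of 0.16 ± 0.12. Dusp2, a nuclear phosphatase of MAP kinases, was at 0.37 ± 0.14, and Per1, which is also a clock gene, was lowest at -0.22. Over the 3 lists together, 26 of 48 genes were higher on both arrays and 4 lower on both, with a median of 0.16 ± 0.11. The 11 heat shock genes, which respond to other forms of stress, had a median of 0.00, with 2 higher and 3 lower on both arrays.

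The called probes of immediate early genes had similar values at 1W and not at 3W. Fos was at 1.41 ± 0.06 at 1W and at -0.64 ± 0.22 at 3W. Fosb was at 0.82 ± 0.26 at 1W and -0.37 ± 0.29 at 3W, and Dusp1 at 0.72 ± 0.02 and -0.70 ± 0.24. The dimmer Ier2 probe was at 0.96 ± 0.11 at 1W and 0.17 ± 0.09 at 3W. The brighter Ier2 probe, not called at 2W, was at 0.09 ± 0.18 at 1W and 0.18 ± 0.29 at 3W. Egr1 took another course, with -0.18 ± 0.13 at 1W and 0.22 ± 0.14 at 3W. Nr4a1 was at 0.53 ± 0.13 at 1W and -0.19 ± 0.12 at 3W, and Dusp2 at -1.17 ± 0.05 and -0.01 ± 0.11. The lists as a whole were near 0 at 1W except for AP-1 subunits. Their medians at 1W were 0.19 for AP-1 subunits, 0.01 for the other transcription factors and -0.01 for feedback regulators and secreted factors. At 3W they were 0.02, 0.05 and -0.01 in the same order. MXD (3% minoxidil, the positive control) at 2W was hybridized against the same VC pool on the same slide. There Fos was at 0.53 ± 0.06, Fosb at 0.02 ± 0.40, Dusp1 at -0.50 ± 0.02, the dimmer Ier2 probe at 0.42 ± 0.06, the brighter one at 0.41 ± 0.14, Egr1 at 0.93 ± 0.18 and Nr4a1 at -0.84 ± 0.01. The medians of the 3 immediate early lists in MXD were 0.47 for AP-1 subunits, 0.30 for the other transcription factors and 0.21 for feedback regulators and secreted factors.

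**Figure D3:**
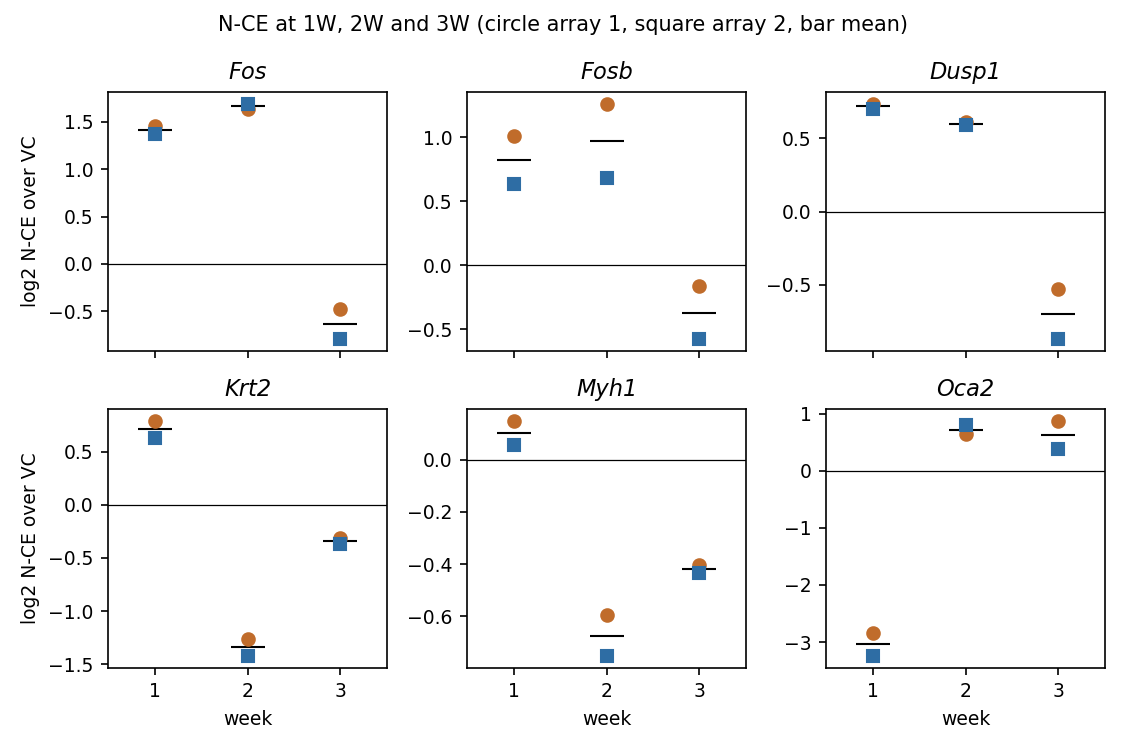
Log2 ratio of N-CE over VC at 1W, 2W and 3W for 6 genes, with circles for array 1, squares for array 2 and a bar for their mean; each week has its own VC pool and each panel its own scale. Fos, Fosb and Dusp1 are above 0 at 1W and 2W and below 0 at 3W, Krt2 is above 0 at 1W and below it later, and Oca2 is at -3.04 at 1W and above 0 later.

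The largest decrease was in Krt2, a type II keratin of the upper epidermis, by both of its probes. The probe printed here lies in the part of the transcript that codes for glycine-rich repeats, at chr15:101641879-101641938 of mm9 on the minus strand, and is shown because it lies at another site of the transcript than the brighter probe and gave a like value.
Krt2 probe: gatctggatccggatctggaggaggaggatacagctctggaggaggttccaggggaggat
The brighter probe, at chr15:101641326-101641385, had signals of 633 and 655 in N-CE and of 1516 and 1758 in VC on arrays 1 and 2. Its log2 ratio was -1.26 and -1.42, with a mean of -1.34 ± 0.12, or 2.53-fold lower in N-CE skin. The printed probe had signals of 74.0 and 111 in N-CE and of 199 and 228 in VC, and its ratio was -1.43 and -1.04, with a mean of -1.23 ± 0.28. Both probes passed 1.5-fold on both arrays with normexp and loess too, at -1.22 and -0.66. At 1W they were higher in N-CE skin, at 0.71 ± 0.11 and 0.87 ± 0.04, and at 3W they were at -0.34 ± 0.04 and -0.26 ± 0.42. In MXD at 2W, against the same VC pool, they were at -1.93 ± 0.30 and -2.16 ± 0.33. The printed probe was not well above background in both pools on both arrays of that comparison.

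Other epidermal genes differed much less than Krt2. Of the basal and suprabasal keratins, 7 were measured, 1 was higher on both arrays and 2 were lower on both. The arrays disagreed on the list as a whole, with a median of 0.27 on array 1 and -0.44 on array 2. Krt10, the partner of Krt1 in differentiating keratinocytes, was lower on both arrays at -0.33 ± 0.10, and Krt79, a keratin of the upper follicle and sebaceous duct, was higher at 0.37 ± 0.15. The basal pair Krt5 and Krt14 had opposite signs on the arrays. Of 28 cornified envelope genes, which build the barrier of the outermost cells, 4 were higher on both arrays and 14 lower on both, with a median of -0.17 ± 0.11. The lowest was Hrnr, a filaggrin-like protein, at -0.40 ± 0.10. All 9 late cornified envelope genes of the Lce1 cluster that were measured were lower on both arrays, with means from -0.32 to -0.23, a subset picked after its values were seen. Lce1 genes are close copies of each other, so their probes may share signal. Over both epidermal lists, 5 of 35 genes were higher and 16 lower on both arrays, and the median was -0.15 ± 0.17, within the spread of the arrays.

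Of the wound keratins and alarmins, 12 were measured, 3 were higher and 1 lower on both arrays, and the median was 0.16 ± 0.27. S100a8, a calcium-binding alarmin, was at 0.53 ± 0.14 and Krt6b at 0.45 ± 0.34. Krt6a and Krt16, which accompany it in activated epidermis, were at 0.17 and 0.24.

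Skeletal muscle genes were lower in N-CE skin as a group. Myh1, a fast myosin heavy chain, had signals of 30040 and 49195 in N-CE and of 45399 and 82843 in VC by its called probe, at chr11:67037938-67037997 of mm9. The log2 ratio was -0.60 and -0.75, with a mean of -0.67 ± 0.11. With normexp and loess it was -0.52 on array 1, short of 1.5-fold. A second Myh1 probe, printed here because it missed the call on array 1 alone, lies in the coding part for the myosin head and spans exons within chr11:67022830-67023932 of mm9.
Myh1 probe: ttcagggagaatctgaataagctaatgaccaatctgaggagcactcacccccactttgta
Its signals were 2581 and 2028 in N-CE and 3763 and 4809 in VC. Its log2 ratio was -0.54 and -1.25, with a mean of -0.89 ± 0.50. Myosin heavy chain genes are closely related, so a probe may bind more than one of them.

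All 13 fast sarcomere genes measured were lower on both arrays, against 20.0% of all probes, with a median of -0.41 ± 0.14. They ranged from Myh1 at -0.67 to Myh4, the fastest myosin heavy chain, at -0.17. Acta1, skeletal actin, was at -0.02 on array 1 and -1.01 on array 2, and in MXD at 2W at -0.98 and -1.94. Its mean in N-CE skin, -0.51 ± 0.70, lay within the spread of the arrays. Of 16 sarcomere scaffold genes, 15 were lower on both arrays and 0 higher, with a median of -0.39 ± 0.11. A pair of probes for Ttn, the spring protein titin, were called at -0.77 ± 0.02 and -0.78 ± 0.19, and 1 probe for Neb, the thin filament ruler nebulin, at -0.65 ± 0.03. Of these 3 probes, only the Ttn probe at -0.78 passed 1.5-fold on both arrays with normexp and loess. The signals of the brighter called Ttn probe were 1941 and 1918 in N-CE and 3030 and 3605 in VC. The brightest Ttn probe was at -0.47, with -0.26 on array 1. The brightest Neb probe was at -0.33, with -0.09 on array 1, and neither was called. Of 19 genes of muscle calcium handling and energy, 15 were lower on both arrays and 0 higher, led by the calcium store protein Casq1 at -0.57 ± 0.23, with a median of -0.36 ± 0.10. Slow sarcomere genes were less uniform. Of 10 on the arrays only 7 were measured, with 4 lower and 1 higher on both arrays and a median of -0.14 ± 0.17. Over the 4 lists, 47 of 55 genes were lower on both arrays and the median was -0.39 ± 0.09. The 4 called probes of Myh1, Ttn and Neb were the only probes of genes in these lists past 1.5-fold on both arrays.

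The fast sarcomere and scaffold lists were below 0 at 3W as well. The median of the fast sarcomere list was -0.15 at 1W and -0.37 at 3W. The scaffold list had a median of 0.04 at 1W and of -0.32 at 3W. In MXD at 2W, against the same VC pool, the medians of the fast sarcomere and scaffold lists were -1.46 and -1.45. The called Ttn probes did not follow their list at 3W, where they were at 0.17 and 0.15. Smooth muscle genes had no common direction at 2W, with medians of 0.11 on array 1 and -0.33 on array 2. How much muscle layer entered each pool was not measured, and the share of muscle in the differences was not tested.

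**Figure D4:**
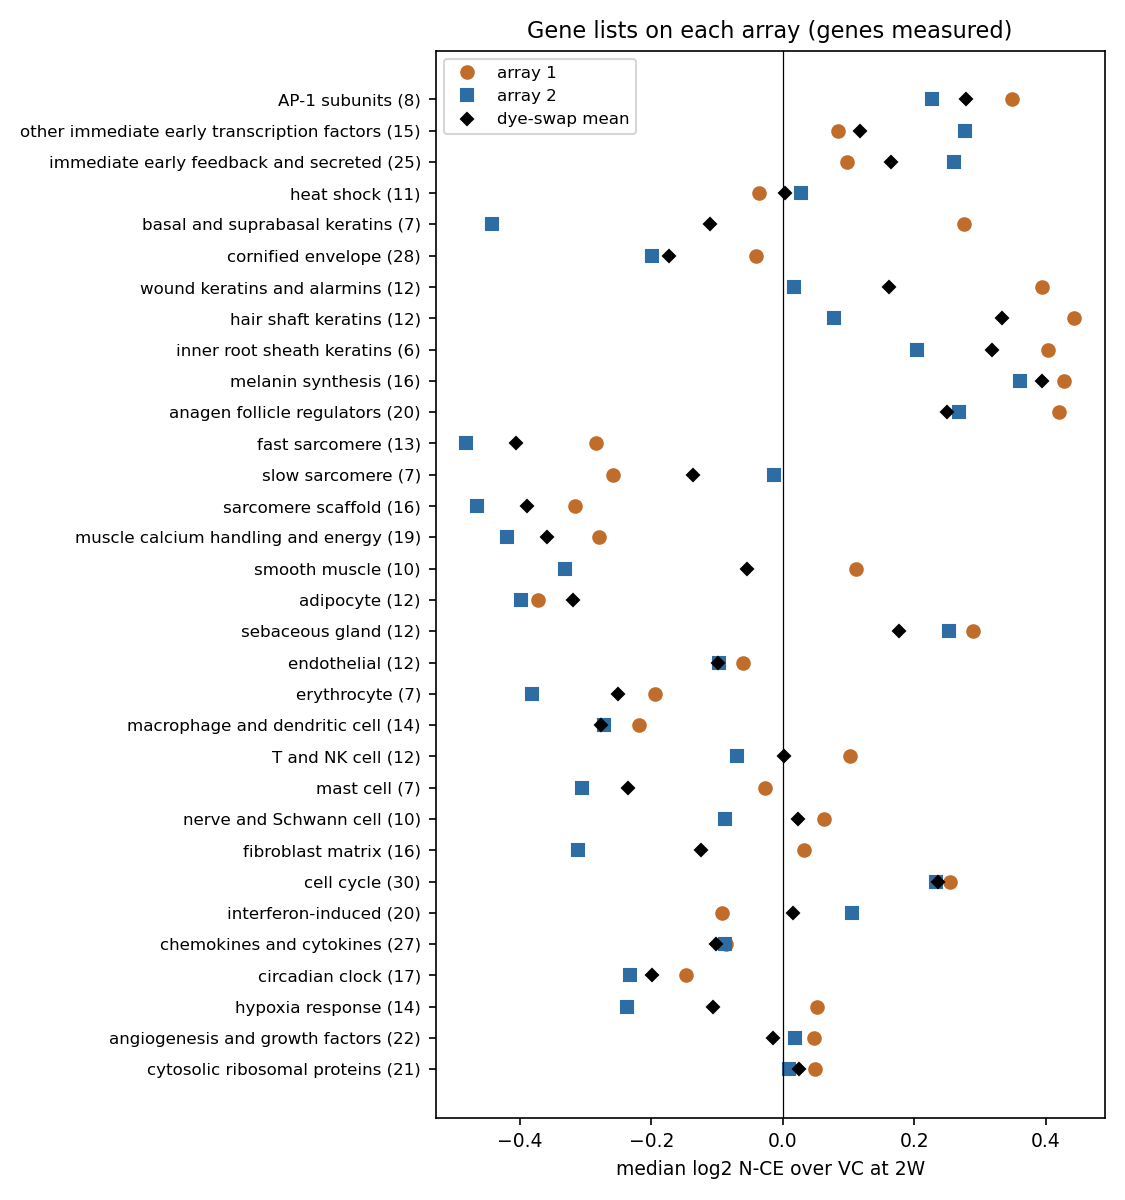
Median log2 ratio of N-CE over VC at 2W for 32 gene lists on array 1 (circles), array 2 (squares) and over the means of the arrays (diamonds), with the number of genes measured in parentheses. Fast sarcomere, sarcomere scaffold, muscle energy and adipocyte lists lie below 0 on both arrays, melanin synthesis, inner root sheath and cell cycle lists lie above 0 on both, and basal and suprabasal keratins lie on opposite sides.

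Fat genes were lower too. All 12 adipocyte genes measured were lower on both arrays, with medians of -0.37 on array 1, -0.40 on array 2 and -0.32 over the means of the arrays, and none was called. Lep, the hormone leptin, was at -0.66 ± 0.12, and its probe, printed 10 times, ranged from -0.82 to -0.63 over 9 copies on array 1 and from -0.68 to -0.49 over 9 on array 2. Plin1, which coats lipid droplets, was at -0.50 ± 0.20, and the fat hormone Adipoq was at -0.40 ± 0.02. The list had a median of 0.31 at 1W and -0.20 at 3W, and of -0.85 in MXD at 2W against the same VC pool. Angptl4, a secreted inhibitor of lipoprotein lipase that is made in fat and elsewhere, was called in the other direction, at 0.65. Of the sebaceous gland genes, 6 of 12 were higher and 0 lower on both arrays, with medians of 0.29 on array 1, 0.25 on array 2 and 0.18 over the means of the arrays. A median over the gene means can lie outside the medians of both arrays. The highest were Krt79 and the wax synthase Awat2, at 0.34 ± 0.04.

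Follicle genes were slightly higher. Of 12 hair shaft keratins, 8 were higher on both arrays and 0 lower, with a median of 0.33 ± 0.26, and none was called. Krt82, a cuticle keratin, was at 1.02 on array 1 and 0.04 on array 2, and in MXD at 2W at 1.94 and 1.02. Its mean in N-CE skin, 0.53 ± 0.70, was the highest of the list and lay within the spread of the arrays. Krt35 of the early cortex was at 0.45 ± 0.21. Of 6 inner root sheath keratins, 5 were higher on both arrays, with a median of 0.32 ± 0.14, among them Krt28 at 0.41 ± 0.13. Of 20 regulators of the anagen follicle, 13 were higher and 0 lower on both arrays, with medians of 0.42 on array 1, 0.27 on array 2 and 0.25 over the means of the arrays. Lef1, the nuclear partner of beta-catenin in Wnt signalling, was at 0.49 ± 0.19, and Dsg4, a desmosomal cadherin of the hair shaft, at 0.57 ± 0.44. The single keratin-associated protein called by name was Krtap19-4, a matrix protein of the shaft, with signals of 40018 and 59333 in N-CE and 26489 and 30345 in VC. Its log2 ratio was 0.60 and 0.97, with a mean of 0.78 ± 0.26, and it passed 1.5-fold with normexp and loess as well.

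Genes of melanin synthesis and the melanocyte were higher with them. Of 16 measured, 9 were higher on both arrays and 1, Ednrb, was lower on both. Oca2, a transport protein of the melanosome, had signals of 1077 and 989 in N-CE and of 689 and 569 in VC, with log2 ratios of 0.64 and 0.80. Trpm1, a melanocyte cation channel, had signals of 4390 and 3631 in N-CE and of 2754 and 2420 in VC, with log2 ratios of 0.67 and 0.59. These 2 were called, and the enzymes Dct and Tyrp1 were at 0.55 and 0.54 without passing 1.5-fold on both arrays. With normexp and loess Oca2 was at 0.57 on array 1 and Trpm1 at 0.57 on array 2, so neither passed 1.5-fold on both. Outside the list, Tspan10, a tetraspanin that is also expressed in pigment cells, was called at 0.75 ± 0.16 and Mia, a secreted protein of melanoma cells and cartilage, at 0.80 ± 0.22. The other 2 probes of Mia were at 0.69 and 0.66, each higher on both arrays. Markers of Schwann cells and nerve, the nearest relatives of melanocytes, had a median of 0.02 over 10 genes.

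Cell cycle genes were higher by a small margin. Of 30 cell cycle genes, all measured, 24 were higher on both arrays and 0 lower, with medians of 0.25 on array 1 and 0.23 on array 2. The highest were Cenpe, a kinetochore motor, at 0.44 ± 0.27 and the proliferation marker Mki67 at 0.42 ± 0.19, and none was called. At 1W the same lists were far below 0 in N-CE skin. The medians at 1W were -0.96 for cell cycle, -2.30 for hair shaft keratins, -2.76 for inner root sheath keratins, -1.79 for melanin synthesis and -0.85 for anagen regulators. At 3W they were 0.29, 0.08, -0.06, 0.49 and 0.18 in the same order. In MXD at 2W, against the same VC pool, they were 0.85, 1.34, 1.23, 1.16 and 1.16.

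Blood and immune genes differed in both directions. The globin genes, near-identical in the case of Hba-a1 and Hba-a2 so that their probes cannot be told apart with certainty, were lower. Hba-a1 had signals of 18176 and 16243 in N-CE and of 28336 and 24883 in VC, with a mean log2 ratio of -0.63 ± 0.02, and Hba-a2 was at -0.63 ± 0.04. Of the pair, only Hba-a1 passed 1.5-fold on both arrays with normexp and loess. Hbb-b1 was at -0.53 without passing 1.5-fold on both arrays. Within the same list the red cell anion exchanger Slc4a1 was at 0.59 and the alpha globin chaperone Ahsp at 0.34, both higher on both arrays. Of the 14 macrophage and dendritic cell genes, 8 were lower and 1 higher on both arrays, with medians of -0.22 on array 1, -0.27 on array 2 and -0.28 over the means of the arrays. C1qa, the first chain of complement C1q, was lowest at -0.42 ± 0.03, followed by the lipopolysaccharide co-receptor Cd14 at -0.36 ± 0.05. The T and NK cell list had a median of 0.00 over 12 genes and medians of opposite sign on the arrays. Its largest member, Gzma, a granule protease, was at -0.46 ± 0.22 with signals from 30.5 to 58.7. Iglv1, an immunoglobulin light chain variable segment that belongs to a family of similar copies, was called at -1.23 ± 0.05. Its signals were 55.6 and 71.9 in N-CE and 134 and 164 in VC. Cxcl10, an interferon-induced chemokine, was the highest of its list at 0.63 ± 0.21, while the list of 20 had a median of 0.02. Of 27 chemokines and cytokines, 4 were higher and 11 lower on both arrays, from Cxcl13 at -0.40 ± 0.43 to Cxcl14, a chemokine of epithelia, at 0.35 ± 0.22.

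Among the remaining lists, circadian clock genes had a median of -0.20 ± 0.06, with 8 of 17 lower and 1 higher on both arrays, and the output factor Dbp was at -0.31 ± 0.12. Mast cell genes had a median of -0.24 ± 0.20, endothelial genes of -0.10, fibroblast matrix genes of -0.12 ± 0.24, hypoxia genes of -0.11 ± 0.20 and angiogenesis and growth factor genes of -0.01. The EGF receptor ligands Areg and Ereg of the last list were at 0.51 ± 0.14 and -0.39 ± 0.46. The 21 cytosolic ribosomal protein genes had a median of 0.03 ± 0.03, with 15 of unlike sign on the arrays.

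The remaining called probes belonged to no list. Higher were Adamts18, a secreted metalloprotease, at 1.02 ± 0.14, Syt4, a vesicle protein, at 1.01 ± 0.21, Lrat, which esterifies retinol, at 0.71 ± 0.11 and the tight junction protein Cldn8 at 0.70 ± 0.01. In MXD at 2W, against the same VC pool, they were at 1.95, 2.46, 1.83 and 1.18 in the same order. At 1W in N-CE, Lrat was at -0.68 and Cldn8 at -0.65, while Adamts18 and Syt4 were not measured in both pools. Of these calls of N-CE at 2W, Syt4 and Cldn8 passed 1.5-fold with normexp and loess. Fam47e was at 0.72 ± 0.02, and the transcripts A130009I22Rik, 9930017N22Rik and 6720473M08Rik were at 0.90, 0.80 and 0.79. The other named genes called higher lay between 0.63 and 0.69, and among them were Hoxb9, a homeobox factor, at 0.68, Pappa, which cleaves IGF-binding proteins, at 0.64 and the kinase Sgk2 at 0.63. The second probe of Hoxb9, brighter than the called one, was at 0.15. A further 6 called probes without a gene name were higher by 0.75 to 1.01, and 1 was lower at -0.95. Lower by name were Apoc4, an apolipoprotein, at -0.82 ± 0.06, the urinary protein Mup3, which has close copies, at -0.84 ± 0.34 and the protease inhibitor Mug1 at -0.78 ± 0.20. Msln, the cell surface protein mesothelin, was at -0.90 ± 0.37. The probe named Gm6484, whose RefSeq symbol is Angptl8, a lipid-regulating hormone of fat and liver, was at -0.83 ± 0.08. Galnt7, which starts O-linked glycans, was at -0.74 ± 0.14, and Map4, a microtubule protein, was at -0.77 ± 0.06 by a probe with signals of 34.9 and 32.3 in N-CE. Brighter Map4 probes were between -0.38 and -0.03. The transcript 5830474E16Rik was at -0.74 ± 0.02.

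Second probes bear on these calls. Of the called genes, 15 had further probes well above background, and 27 of the 29 further probes that were not called had the sign of the called one on both arrays. Titin alone gave 7 of them. The exceptions were a probe of Zfp7, a zinc finger protein, at -0.15 and a Map4 probe of unlike sign on the arrays. Several brighter further probes were milder than the called one, with means of 0.26 for 9930017N22Rik, 0.59 for Adamts18 and -0.23 for Galnt7. For Lrat the brighter probe was close to the called one, at 0.64. At 1W, 34 of the called probes were measured in both pools. Of the 16 called higher at 2W, 4 were higher and 12 lower on both arrays at 1W, and of the 18 called lower, 5 were lower and 11 higher. At 3W, 18 of 28 called higher were higher and 3 lower on both arrays, and of 14 called lower, 6 were lower and 3 higher. Over all measured probes, 35.5% were higher and 27.3% lower on both arrays at 1W, and 29.2% and 30.6% at 3W.

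The called probes just inside the threshold were Trpm1, with 0.59 on its weaker array, and Tshr, the thyrotropin receptor, with -0.59. Just outside were Tbc1d30, with 0.58, and another Ttn probe, with -0.58. A further 47 probes were well above background in N-CE skin on both arrays and in VC skin on neither, and 59 the reverse. Where a bound could be given after normexp and loess, none exceeded 1.248-fold. The widest were 1.22-fold higher in N-CE for the transcript 5330417C22Rik and 1.248-fold lower for the kinase Camk2a. Both were taken against the probe's own signal in the dim pool, which was not well above background. The bounds hold after an offset of 50 on each signal and do not cap the differences. The processed log2 ratios on arrays 1 and 2 were 1.27 and 1.16 for Slc10a4 and -1.07 and -1.07 for Nacad. For Clec1b they were of unlike sign, at -1.69 and 0.09.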

How the data were processed

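Total RNA of whole back skin was measured on Agilent whole mouse genome arrays. The authors pooled RNA of 6 mice per group before labelling, and labels give each sample its group and dyes. Scans were read by the authors in Feature Extraction of Agilent, given as version 12.0.3.1 in the file headers and as 11.0.1.1 in the submitters' processing notes, and the cause of this mismatch is unknown. The deposited signal intensity of each channel is background-subtracted and LOWESS dye-normalized by that software. The authors also deposited the log10 ratio of Cy5 over Cy3 and an error-model p-value per spot, which describes the spot and not the animals. The deposited log10 matrix of the series was the log10 of the ratio of processed intensities within 0.0001 on all 43379 spots for transcripts, on both arrays, with no further centring.

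The members and gene lists were chosen with earlier results of these data known. Log2 ratios were computed from processed intensities, turned to N-CE over VC by the labelled dye, without control spots and without the 238 and 143 spots flagged as outliers on arrays 1 and 2. No spot was saturated. Spots of a probe were averaged over up to 10 copies. Probes counted as measured where at least 50% of their spots were well above background in both pools on both arrays. Called probes exceeded 1.5-fold on both arrays in one direction. A list gene was represented by its measured probe of highest mean signal, and 32 lists were used. Fos, Ier2, Krt2 and Myh1, the 15 highest and 15 lowest called probes with a gene name, and in each list the called and the 2 largest members were to be named, and some other list members are named as examples after their values were seen. Genes are named as on the array, and 27903 of 41174 probes matched a RefSeq transcript by accession. Bounds for probes measured in one pool used limma 3.58.1 in R 4.3.3, with normexp at an offset of 50, loess and Aquantile. They divide the mean of the brighter pool by that of the other, in which each array enters with the higher of the probe's own signal and the lowest signal well above background. The probe's own signal was the higher on both arrays for 46 of 47 and 55 of 59 probes. These folds are open to dye bias that the swap balances. Python 3.11.15, numpy 2.4.6, pandas 2.3.3 and matplotlib 3.10.9 were used. The steps were tested on simulated data. Alternatives covered the ratio, background correction, centring, the filter, spots, outliers, thresholds, the probe of a gene and each array alone. Arrays of MXD at 1W and 3W were not used here. The number of arrays limits the precision, and nothing in the labels separates the animals within a pool.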

Additional observations from a re-analysis of the deposited data

Results flagged for a closer look

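Several values had one sign on both arrays at 2W and the opposite sign on both arrays in another week of N-CE, where the VC pool was another one. The differences between weeks were not tested. The log2 ratios of the other week were as follows. At 3W, Fos was at -0.64, Fosb at -0.37 and Dusp1 at -0.70, against values above 0 at 2W, while the called Ttn probes were at 0.17 and 0.15 and Iglv1 at 0.40, against values below 0 at 2W.

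At 1W, some of the genes that were to be named and called higher at 2W were below 0 on both arrays. They were Oca2 at -3.04, Trpm1 at -2.82, Krtap19-4 at -1.71, A130009I22Rik at -0.87, Lrat at -0.68, 6720473M08Rik at -0.67 and Cldn8 at -0.65. Fos, Fosb, Dusp1 and the dimmer Ier2 probe, also called higher at 2W, were above 0 at 1W. Some of the genes that were to be named and called lower at 2W were above 0 on both arrays at 1W. They were Mup3 at 1.18, Apoc4 at 1.096, Gm6484 at 0.87, the printed Krt2 probe at 0.87, the brighter Krt2 probe at 0.71, Msln at 0.47, Mug1 at 0.44, Galnt7 at 0.30 and Myh1 at 0.10.

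Medians of lists that were above 0 at 2W and below it at 1W were those of inner root sheath keratins at -2.76, hair shaft keratins at -2.30, melanin synthesis at -1.79, cell cycle at -0.96, anagen follicle regulators at -0.85, sebaceous gland at -0.11 and immediate early feedback regulators at -0.013. Medians below 0 at 2W and above it at 1W were those of mast cell at 0.42, adipocyte at 0.31, chemokines and cytokines at 0.30, endothelial at 0.28, macrophage and dendritic cell at 0.24, circadian clock at 0.17, cornified envelope at 0.15 and sarcomere scaffold at 0.036. At 3W, immediate early feedback regulators were at -0.0097 and wound keratins and alarmins at -0.011, against medians above 0 at 2W. Angiogenesis and growth factors were at -0.043 at 3W, against medians of 0.05 and 0.02 on the arrays of 2W.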

How the results depend on the processing

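The counts of 31 higher and 19 lower probes became 6 and 5 with normexp and loess, 49 and 32 among probes well above background in at least 1 pool, and 215 and 228 with no filter. Background correction, offset and dye normalization changed together in normexp and loess, and the cause was not tested. Of the called probes, 24 of the 31 and 13 of the 19 had signals below the median of all measured probes, and bright ones such as Myh1 and Hba-a2 lost their call as well. The counts were 93 and 404 by a mean fold above 1.5 or below 0.75 alone, 1 and 3 at 2-fold on both arrays, and 305 and 301 at the mildest fold tried on both arrays. On each array alone they ranged from 371 to 558 higher and from 399 to 524 lower. Single spots gave 50 higher. The r between the arrays was -0.20 with normexp and loess, -0.14 with probes well above background in at least 1 pool, -0.21 with no filter and -0.15 over single spots. Of the 50 called probes, 11 stayed past 1.5-fold with normexp and loess and 46 with each array centred on its median. All 34 named probes that were called kept their sign under these settings. The medians of immediate early, epidermal and skeletal muscle genes moved by less than the SD of the arrays under the alternatives that used both arrays. On each array alone, where a shift under the SD is close to given by construction, they ranged from 0.10 to 0.26, from -0.26 to -0.02 and from -0.42 to -0.30. No paired analysis was possible because each group is 1 pool and no test was made. With 1 pool a side, animals, cage and dissection cannot be told apart from the treatment.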
